A study of Mus musculus with 4 samples.

Results

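Eosinophils are granulocytes whose granules hold strongly basic, toxic proteins, and 10 genes that mark this lineage were followed in RNA of Lin– (lineage-negative) marrow cells, the progenitor-rich fraction that remains once cells with mature lineage markers have been taken out. The 10 genes were chosen by symbol for their known roles in eosinophils, with earlier results of these data known. All were found among the 16673 genes of the deposited table. They comprised 6 genes of granule proteins (Epx, Prg2, Prg3, Ear1, Ear2 and Ear6), 3 genes of surface receptors (Il5ra, Siglecf and Ccr3) and 1 enzyme gene (Alox15). All 10 had a mean of at least 10 normalized counts, the level required for testing, which 16598 genes reached.

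Mice that were Tie2+/cre; Tet3F/F (labelled cKO, n = 2) were compared with Tet3F/F mice without Cre (labelled control, n = 2), all of them 2 months old, with 1 library per mouse. Both groups thus carried the floxed Tet3 alleles. Tie2-driven Cre acts in endothelial and early blood cells, so that recombination would be carried into all blood lineages and into endothelium. TET3 is an enzyme that oxidises 5-methylcytosine in DNA. The antibodies of the depletion step are not stated in the labels.

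Eosinophils arise in the marrow from granulocyte progenitors under the transcription factors GATA1, C/EBP and PU.1, and interleukin-5 acting through its receptor drives their expansion. Messenger RNA for the granule proteins is made early, while the granules are being filled in immature cells of the marrow. The eotaxin receptor CCR3 marks cells that mature and leave for tissues. Peroxidase, major basic protein and the eosinophil-associated ribonucleases are the main granule contents.

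The Ear genes belong to the ribonuclease A superfamily and are recent duplicates in the mouse, so the start of their coding sequences is shown to let a reader see how alike the counted transcripts are. In the GENCODE M21 transcripts (GRCm38) the coding sequences of Ear1 and Ear2 were 95.12% identical, those of Ear1 and Ear6 87.39% and those of Ear2 and Ear6 87.69%. Coding bases 1 to 120 are given 5′ to 3′, with capitals at the 16 positions where the 3 genes are not all the same, and Ear6 stands alone at 12 of these. All 3 genes lie on chromosome 14.
Ear1: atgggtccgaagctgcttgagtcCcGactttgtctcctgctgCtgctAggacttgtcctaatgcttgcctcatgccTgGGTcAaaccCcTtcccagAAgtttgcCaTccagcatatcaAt
Ear2: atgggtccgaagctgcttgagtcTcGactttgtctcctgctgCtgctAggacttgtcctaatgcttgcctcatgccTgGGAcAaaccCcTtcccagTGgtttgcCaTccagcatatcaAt
Ear6: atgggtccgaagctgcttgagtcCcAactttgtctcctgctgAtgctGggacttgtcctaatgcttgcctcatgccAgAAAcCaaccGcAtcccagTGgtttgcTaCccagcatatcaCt
Reads from stretches without a difference could be split among these copies, so the count of each single Ear gene is uncertain. The copies Ear10 and Ear14 were not analysed here, and Ear10 is 97.03% identical to Ear2 over the coding sequence.

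Promoters of 8 of the 10 genes were held in the RefSeq table (build GRCm38.p6, another build than the mm39 of the reads), those of Prg2 and Alox15 being the exceptions. Because GATA1 is required for eosinophils, the 250 bases before each gene's start were searched on both strands for GATA words, which are GATA with A or T before it and A or G after it. Of the 8 promoters, 3 held such a word (Prg3, Il5ra and Ccr3), against 26.5% of 32851 promoters of the same length over all genes. The PU.1 core GAGGAA was present in the promoters of Siglecf and Ccr3, against 23.3% of all promoters, and did not overlap a GATA word. The 3 promoters with a GATA word, and that of Epx as a granule gene without one, are printed 5′ to 3′ with GATA words in capitals.
Prg3, chr2:84987965-84988214, plus strand: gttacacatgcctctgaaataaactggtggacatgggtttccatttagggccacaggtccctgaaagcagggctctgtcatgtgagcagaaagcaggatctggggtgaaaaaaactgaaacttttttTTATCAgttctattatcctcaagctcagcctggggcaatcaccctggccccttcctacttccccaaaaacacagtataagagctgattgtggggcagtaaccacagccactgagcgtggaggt
Il5ra, chr6:106749038-106749287, minus strand: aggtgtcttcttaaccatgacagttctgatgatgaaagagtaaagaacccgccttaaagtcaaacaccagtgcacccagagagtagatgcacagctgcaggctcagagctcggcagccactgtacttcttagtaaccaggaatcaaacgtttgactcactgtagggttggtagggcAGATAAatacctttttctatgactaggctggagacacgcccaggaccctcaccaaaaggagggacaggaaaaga
Ccr3, chr9:124021721-124021970, plus strand: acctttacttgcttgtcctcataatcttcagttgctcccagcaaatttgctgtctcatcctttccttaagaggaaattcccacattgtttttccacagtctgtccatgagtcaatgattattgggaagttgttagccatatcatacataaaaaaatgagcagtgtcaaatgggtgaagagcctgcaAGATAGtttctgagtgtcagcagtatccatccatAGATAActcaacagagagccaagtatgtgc
Epx, chr11:87875537-87875786, minus strand: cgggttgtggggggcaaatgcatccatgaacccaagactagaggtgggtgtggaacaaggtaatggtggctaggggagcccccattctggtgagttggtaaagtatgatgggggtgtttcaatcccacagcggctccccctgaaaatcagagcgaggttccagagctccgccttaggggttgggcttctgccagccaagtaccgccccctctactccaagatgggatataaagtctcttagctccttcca
Ccr3 held 2 words, 59 to 64 and 25 to 30 bases before its start, Il5ra held 1 word at 69 to 74 bases, and Prg3 held 1 word on the other strand at 118 to 123 bases. The Ear1 and Ear2 promoters were 97.62% identical and held none of these words.

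The 4 libraries were deep, and 1 of them stood apart. Reads assigned to genes totalled 28845037 and 30020188 for cKO replicates 1 and 2, and 39199593 and 46673855 for control replicates 1 and 2. Control replicate 2 had correlations of 0.932 to 0.947 with the other libraries over genes, which are not independent replicates, against 0.963 to 0.972 among the others, and 8.16% of its reads came from the 13 mitochondrial protein genes, against 0.989% to 1.26% elsewhere. Tet3 had 6400 and 5084 normalized counts in the cKO-labelled libraries and 5056 and 6593 in the control-labelled ones (a log2 difference of -0.02, SE 0.22, and a Benjamini-Hochberg adjusted p of 0.988 by limma), so this count over the whole gene, of which the labels do not name the floxed exons, does not check the labels. Xist had 87442 and 48951 normalized counts in the cKO-labelled libraries and 5.54 and 9.57 in the control-labelled ones, and Ddx3y, Eif2s3y, Kdm5d and Uty had 0 reads in both cKO-labelled libraries. The groups therefore differed in sex as well as genotype, and these cannot be told apart.

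The eosinophil genes formed a visible but small part of the RNA. Together they took 0.0418% (Wilson 95% interval 0.0411 to 0.0426) and 0.0763% (0.0754 to 0.0773) of the reads in cKO replicates 1 and 2, and 0.0629% (0.0621 to 0.0637) and 0.0113% (0.0110 to 0.0116) in control replicates 1 and 2. These intervals, like all counting intervals given here, cover counting error only. Control replicate 2 thus had the smallest share, and control replicate 1 lay between both cKO libraries. Fewer eosinophil-lineage cells, less of this RNA in each, and less of it from other cells cannot be told apart in bulk RNA.

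Prg2, which encodes the major basic protein of the granule core, had the highest level per length of the 10 in every library. On the scale of normalized counts per kilobase of exon it averaged 13787 ± 5408 in cKO and 10079 ± 9919 in control (SD, n = 2 each). Epx, the eosinophil peroxidase that forms hypohalous acids, came next in 3 of the 4 libraries, at 1367 ± 660 per kilobase in cKO and 864 ± 1042 in control. The 3 Ear genes (1036 to 1171 in cKO and 364 to 874 in control) and Prg3 (738 ± 304 and 348 ± 359) had group means within 1 SD of those of Epx. Within each of the 4 libraries, however, Epx lay above Ear1, Ear6 and Prg3, and Ear2 lay above the same genes. Siglecf (330 ± 32.4 and 266 ± 17.96) and Alox15 (230 ± 7.60 and 82.3 ± 53.9) followed by group mean, but in control replicate 2 Siglecf (254) stood above Epx (127), Prg3 (94.1), Ear1 (17.5) and Ear6 (15.2). Ccr3 (33.1 ± 25.7 and 8.72 ± 0.764) and Il5ra (10.06 ± 3.32 and 10.06 ± 4.76) were the lowest and overlapped in level.

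**Figure D1:**
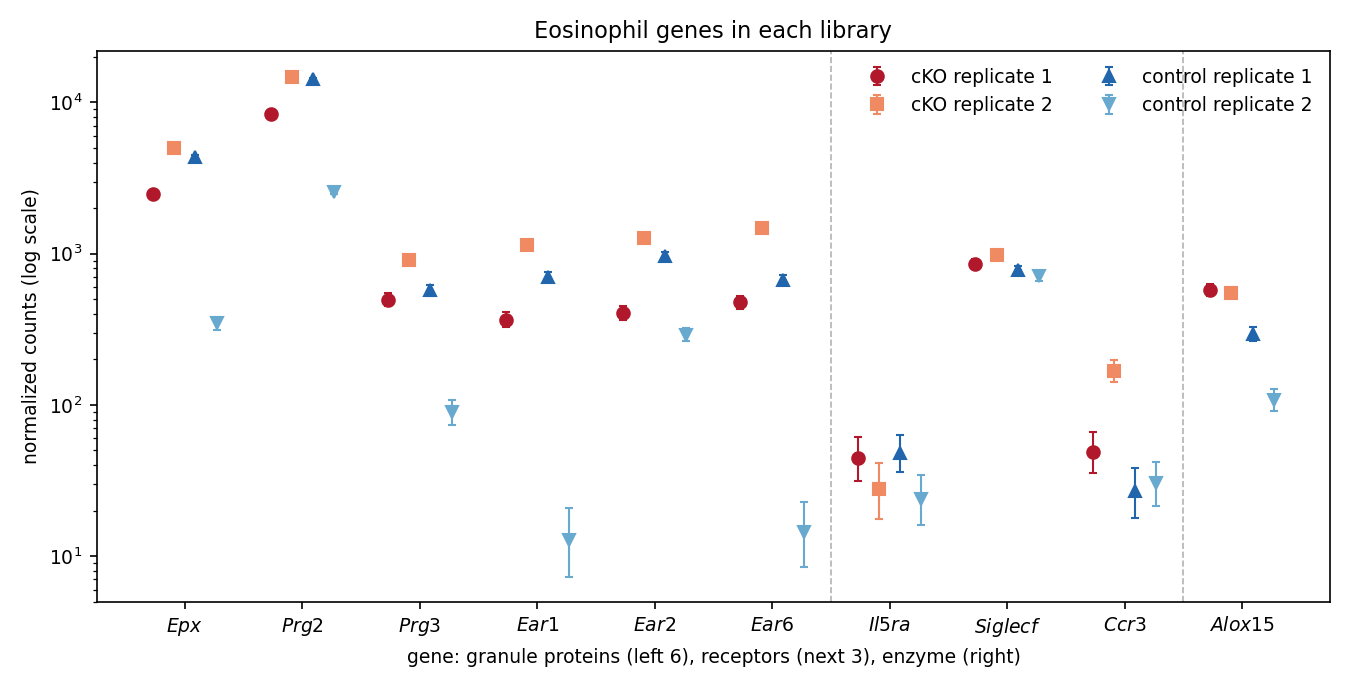
Normalized counts (log scale) of the 10 eosinophil genes in each of the 4 libraries, with exact Poisson 95% counting intervals on the reads. All 6 granule genes are lowest in control replicate 2, with Ear1 and Ear6 at 12.8 and 14.4 there, while Siglecf lies between 707 and 986 in all libraries.

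The 6 granule protein genes were lowest in control replicate 2, while control replicate 1 lay between both cKO libraries in each of them. Epx had 2463 and 5019 normalized counts in cKO replicates 1 and 2, and 4380 and 347 in control replicates 1 and 2. Prg2 had 8349 and 14758 in cKO, and 14324 and 2568 in control. Control replicate 2 held less than any other library of both RNAs, and the groups overlapped.

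Prg3, the homologue of the major basic protein encoded near Prg2 on chromosome 2, had 496 and 904 normalized counts in cKO, and 572 and 89.3 in control. It shared the pattern of Prg2, and the ratio of Prg2 to Prg3 was 16.8 and 16.3 in cKO, against 25.1 and 28.8 in control. The ratio of Prg2 to Epx was 3.39 and 2.94 in cKO, and 3.27 and 7.40 in control, so Epx was the further reduced of the pair in control replicate 2. Prg2 made up 66.5% and 60.0% of the summed granule counts in cKO, and 66.3% and 77.3% in control.

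The Ear genes encode secreted ribonucleases of the granule matrix. Ear1 had 367 and 1147 normalized counts in cKO, and 704 and 12.8 in control, the last resting on 16 reads (exact Poisson 95% interval 7.29 to 20.7 normalized counts). Ear6 had 479 and 1489 in cKO, and 673 and 14.4 in control, the last from 18 reads (interval 8.51 to 22.7). Ear2 had 406 and 1278 in cKO, and 965 and 292 in control, so it kept a far higher level than its 95.12% identical copy Ear1 in control replicate 2.

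The ratio of Ear2 to Ear1 was 1.11 in both cKO libraries, and 1.37 and 22.9 in control replicates 1 and 2. Ear6 to Ear1 stayed at 1.31 and 1.30 in cKO, and at 0.955 and 1.13 in control. When the 3 genes were summed, they had 1251 and 3913 normalized counts in cKO, and 2342 and 319 in control. The sum undoes splitting of reads among the 3, but not the loss of reads left uncounted or assigned to other copies. In control replicate 2, Ear2 gave 292 of the 319. Of a wider family list of 14 symbols, 5 had values. The others of these, Rnase2a and Rnase2b, were near or under the floor of 3 reads (2.39 to 3.50 normalized counts) in 1 library each. Rnase2a had 7.004 and 18.4 normalized counts in cKO, and 24.0 and 3.19 in control, and Rnase2b had 0 and 6.89 in cKO, and 14.8 and 31.9 in control. Rnase2b was thus highest in control replicate 2, the library in which Ear1, Ear2, Ear6 and Rnase2a were lowest.

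The receptors differed less between the control libraries than the granule genes, and control replicate 2 was the lowest library for Siglecf and Il5ra but not for Ccr3. Siglecf, an inhibitory lectin of eosinophils that also marks alveolar macrophages, had 858 and 986 normalized counts in cKO, and 778 and 707 in control. Both cKO libraries lay above both control libraries, but the counting intervals of cKO replicate 1 (797 to 922) and control replicate 1 (727 to 833) overlapped. Il5ra, the ligand-binding chain of the interleukin-5 receptor, had 44.4 and 27.6 in cKO, and 48.0 and 23.9 in control, from 24 to 52 reads, and the groups overlapped fully. Ccr3, the eotaxin receptor that draws eosinophils into tissue, had 49.0 and 168 in cKO, and 26.8 and 30.3 in control. Its values did not overlap between groups. The counting interval of cKO replicate 1 (35.3 to 66.3) overlapped in part those of control replicate 1 (17.9 to 38.5) and control replicate 2 (21.4 to 41.6).

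Alox15, the 12/15-lipoxygenase that oxidises arachidonic acid and is also made by resident macrophages, had 577 and 550 normalized counts in cKO, and 295 and 108 in control. Both cKO libraries lay above both control libraries, and their counting intervals (502 to 630 over both) did not reach those of control (91.0 to 330). Unlike the granule genes, it differed little between the cKO libraries, with a ratio of replicate 2 to replicate 1 of 0.954, against 1.77 to 3.14 for the 6 granule genes.

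Set against each other within a library, the 6 granule genes and the 3 receptors among the 10 parted in control replicate 2. Of these receptors, Il5ra rested on 30 reads there and Ccr3 on 38. The mean log2(normalized count + 1) of the granule genes was 9.89 and 11.17 in cKO, and 10.64 and 7.03 in control. The same mean over the 3 receptors was 6.96 and 7.39 in cKO, and 6.67 and 6.36 in control. The receptors thus spanned about 1 log2 unit over the libraries and the granule genes about 4. The difference of granule minus receptor was therefore 2.93 and 3.77 log2 units in cKO, and 3.97 and 0.67 in control. Control replicate 1 had the largest difference of the 4 and control replicate 2 the smallest, so the cKO libraries lay between both controls.

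The group means of this difference were 3.35 ± 0.60 in cKO and 2.32 ± 2.33 in control (SD, n = 2 each), and cKO minus control was 1.03. The gap is smaller than the spread between control libraries. It was 2.68 without control replicate 1 and turned to -0.62 without control replicate 2. With Epx, Prg2 and Prg3 as the only granule genes it was 0.65, and with Siglecf left out of the receptors 0.85. No p is given for this score, since its members were chosen as a list.

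**Figure D2:**
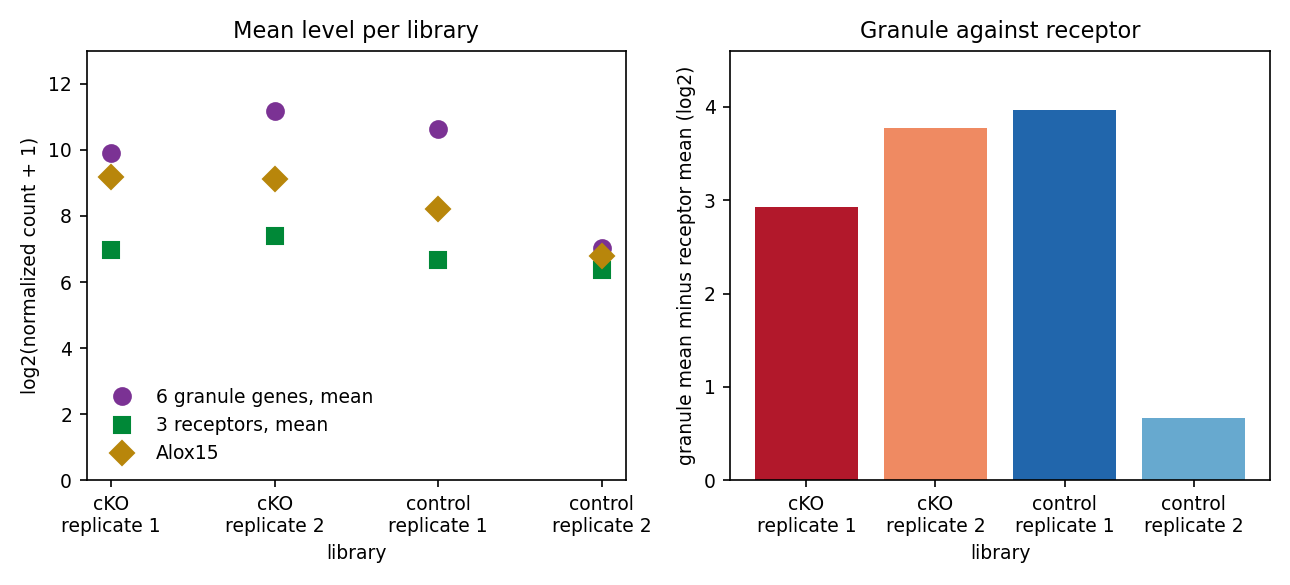
Left, mean log2(normalized count + 1) of 6 granule genes and 3 receptors, and the value of Alox15, in each library. Right, granule mean minus receptor mean (log2), which is 2.93 and 3.77 in cKO replicates 1 and 2, and 3.97 and 0.67 in control replicates 1 and 2.

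Between the control libraries, 5 of the 10 genes (Epx, Prg2, Prg3, Ear1 and Ear6, all granule genes) were at least 4-fold higher in replicate 1 than in replicate 2, as were 3.33% of all genes tested. The ratios were 12.6 for Epx, 5.58 for Prg2, 6.40 for Prg3, 55.2 for Ear1 and 46.9 for Ear6, against 3.31 for Ear2, 2.72 for Alox15, 2.01 for Il5ra, 1.10 for Siglecf and 0.883 for Ccr3. Control replicate 2 was the lowest of the 4 libraries in 9 of the 10 genes, Ccr3 being the exception, and in 34.1% of all genes. Between the cKO libraries, 5 of the 10 (Epx, Ear1, Ear2, Ear6 and Ccr3) were at least 2-fold higher in replicate 2, as were 5.43% of all genes, with ratios of 2.04 to 3.42. The granule genes thus varied within both genotypes, whereas Siglecf differed little, with ratios of 1.10 between the control and 1.15 between the cKO libraries.

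The comparison of genotypes asks which transcripts differ between groups that also differ in sex, and 0 of the 10 genes passed it. The test was limma on log2(normalized count + 1) across all genes, two-sided, at a Benjamini-Hochberg adjusted p under 0.05, which 0.0723% of all genes passed. These were 12 genes, among them Xist and the Y genes Ddx3y, Eif2s3y, Kdm5d and Uty. At an unadjusted p under 0.05 there were 2 of the 10, Alox15 and Ccr3, against 6.1% of all genes. edgeR and DESeq2 on the recovered reads also called 0 of the 10. All 10 log2 fold changes were above 0, as were 50.8% of all genes, with a median of 1.54, against 0.01 over all genes tested. Without control replicate 2 the median of the 10 was 0.05 and 5 of them were below 0, and it was 2.24 without control replicate 1, 0.88 without cKO replicate 2, 0.89 with edgeR and 0.87 with DESeq2. Both cKO libraries lay above both control libraries in 3 of the 10 (Siglecf, Ccr3 and Alox15), a share to be read against 19.2% of all genes.

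Among the receptors and the enzyme, Alox15 differed by 1.65 on the log2 scale (SE 0.46, 95% interval 0.56 to 2.73), with an unadjusted p of 0.00839 and a Benjamini-Hochberg adjusted p of 0.756 by limma. Without control replicate 2 it was 0.93 and without control replicate 1 it was 2.37. Ccr3 had 1.64 (SE 0.69, interval 0.03 to 3.25, adjusted p by limma 0.756), and 0.76 without cKO replicate 2, the library that held 146 of its reads. For both genes the interval lay above 0 before adjustment over all genes, and neither passed after it. Siglecf had 0.31 (SE 0.22, interval -0.21 to 0.83, adjusted p by limma 0.770). Il5ra had 0.04 (SE 0.67, interval -1.52 to 1.61, adjusted p by limma 0.988), but -0.45 with control replicate 2 left out and -0.29 with cKO replicate 1 left out.

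Among the granule genes, Ear6 and Ear1 had the widest intervals of the 10. Ear6 differed by 3.05 log2 units (SE 1.50, 95% interval -0.45 to 6.56) and Ear1 2.72 (SE 1.56, interval -0.92 to 6.36). Prg3 had 1.56 (SE 0.77), Epx 1.51 (SE 0.998), Prg2 0.87 (SE 0.70) and Ear2 0.44 (SE 0.66), and the adjusted p of the 6 by limma ran from 0.756 to 0.882. The direction of 4 of the 6 rested on control replicate 2. Without that library Epx had -0.32, Prg2 -0.37, Ear1 -0.12, Ear2 -0.42, Prg3 0.23 and Ear6 0.33. Ear2 also had -0.39 without cKO replicate 2.

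Without control replicate 1, with control replicate 2 as the lone control assumed to vary like the other libraries, limma called 6 of the 10 higher, against 2.38% of all genes. Their log2 fold changes were then 5.78 for Ear6, 5.56 for Ear1, 3.34 for Epx, 2.89 for Prg3, 2.37 for Alox15 and 2.11 for Prg2, with Benjamini-Hochberg adjusted p of 0.00605 to 0.0232. No such call was made when any other library was left out. With all 4 libraries, edgeR on the recovered reads gave smaller log2 fold changes than limma for these genes, such as 0.68 for Epx, 0.47 for Prg2, 1.09 for Ear1 and 1.53 for Ear6.

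**Figure D3:**
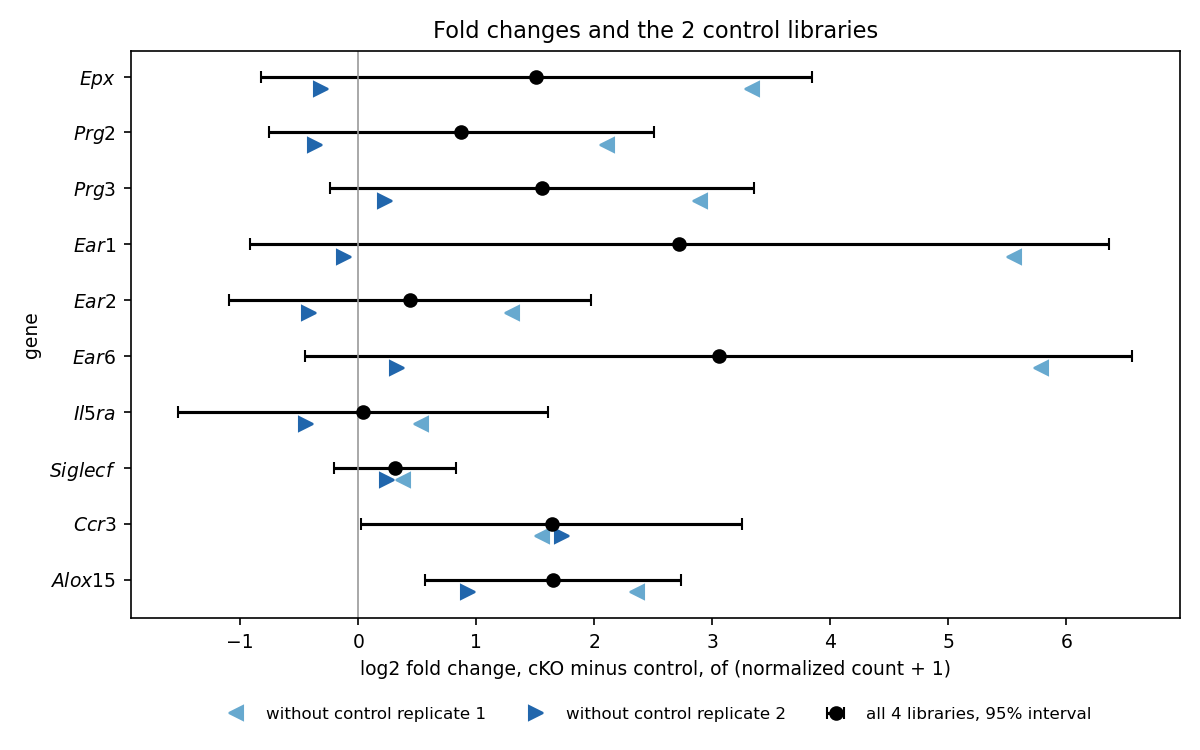
Log2 fold change, cKO minus control, of the 10 genes with limma's 95% intervals (black), and the value without each control library in turn (triangles). The granule genes lie near 0 without control replicate 2 (-0.42 to 0.33) and at 1.30 to 5.78 without control replicate 1, whereas Ccr3 is at 1.73 and 1.55.

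Genes that act with these 10 were present, and none passed the test. The ligand genes Il5, Ccl11, Ccl24 and Il33 were not analysed here. Of the 9 tested receptor and signalling genes, 4 had a log2 fold change above 0 and 5 below, and the median was -0.04. Csf2rb, the common beta chain with which IL5RA signals, had 6164 and 5781 normalized counts in cKO, and 8963 and 4938 in control, far above Il5ra, and is used by other cytokine receptors as well. The kinase gene Jak2 (5098 and 4366 in cKO, and 3731 and 4083 in control) and Stat5a (4525 and 4235 in cKO, and 4254 and 4742 in control) varied little. Csf2ra, the GM-CSF receptor chain, had 4576 and 6222 in cKO, and 10073 and 7730 in control (log2 fold change -0.73, SE 0.23).

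Of the 12 transcription factor genes, 0 passed the test and 4 had a log2 fold change above 0. Gata1, which erythroid and megakaryocyte cells also use and which is X-linked, had 2020 and 1565 normalized counts in cKO, and 1369 and 5005 in control. It was thus highest in the library in which the granule genes were lowest. Cebpe, a factor of granulocyte maturation, had 912 and 1289 in cKO, and 1713 and 664 in control, and was lowest there. Cebpa was also lowest there, with 5608 and 6336 in cKO, and 7993 and 3707 in control. Cebpb went the other way and was highest there, with 1166 and 2009 in cKO, and 3079 and 4045 in control (log2 fold change -1.20, SE 0.29). Spi1, which encodes PU.1, had 6140 and 8098 in cKO, and 10783 and 5595 in control.

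Of the 22 other genes used by eosinophils, all were tested, 10 had a log2 fold change above 0 and 0 passed. Of these, 3 receptor genes were at least 4-fold lower in control replicate 2 than in control replicate 1, as were 3.33% of all genes tested. They were not among the receptors set against the granule genes above. Hrh4, a histamine receptor, had 51.4 and 29.9 normalized counts in cKO, and 14.8 and 0 in control. C3ar1, the C3a receptor, had 86.4 and 50.5 in cKO, and 38.8 and 4.79 in control. Ptgdr2, a prostaglandin D2 receptor, had 24.5 and 13.8 in cKO, and 12.9 and 1.60 in control. In control replicate 2 C3ar1 rested on 6 reads, Ptgdr2 on 2 and Hrh4 on 0, the last 2 genes lying under the floor of 3 reads. Basophils carry such receptors as well. These 3 genes were higher in cKO replicate 1 than in replicate 2, whereas the 6 granule genes were higher in replicate 2. Of the 22 genes, 16 were lower in control replicate 2 than in control replicate 1. The receptor genes Il1rl1 (769 and 1729 in control) and Ffar2 (1264 and 2214 in control) went the other way. Most of the other genes on this list are shared with neutrophils, monocytes or mast cells. Alox5ap (6618 and 9777 in cKO, and 11773 and 9385 in control) did not show a 4-fold gap. Neither did Fcer1g (3695 and 4819 in cKO, and 5870 and 4436 in control).

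Markers of other cells also differed between libraries, and control replicate 2 was not the lowest in all lists. The 9 basophil and mast cell genes in the table summed to 35924 and 21163 normalized counts in cKO, and 32403 and 17301 in control, with control replicate 2 lowest in 7 of 9. The 5 neutrophil primary granule genes, led by Mpo, summed to 378893 and 473032 in cKO, and 599269 and 194460 in control, with control replicate 2 lowest in 3 of 5. The 10 neutrophil genes of later granules summed to 3224 and 8259 in cKO, and 11758 and 4193 in control, and the 10 macrophage and monocyte genes to 28200 and 33712 in cKO, and 44290 and 28384 in control. Both of these sums were lowest in cKO replicate 1. The 11 erythroid genes summed to 55756 and 30395 in cKO, and 36872 and 126479 in control, so control replicate 2 was highest there. The 9 progenitor genes, led by Kit, Cd34 and Flt3, summed to 40028 and 38111 in cKO, and 31491 and 30929 in control, and so marked every library. The 10 lymphoid genes in the table summed to 11942 and 11505 in cKO, and 10079 and 7150 in control. Both cKO libraries lay above both control libraries in 6 of these 10, against 19.2% of all genes, and 0 passed the test.

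The median log2 difference of control replicate 2 minus replicate 1 was -3.16 for the 6 eosinophil granule genes and 0.01 over all genes tested. It was -1.32 for the basophil and mast cell list, -1.80 and -1.39 for the neutrophil primary and later granule lists and -0.49 for the macrophage and monocyte list. It was 1.72 for the erythroid list and 3.16 for the 13 mitochondrial protein genes, which were higher in control replicate 2. Between the cKO libraries the granule genes and the basophil list went opposite ways, since the granule genes summed to 12560 and 24595 and the basophil list was higher in replicate 1. The mast cell protease genes Cma1, Mcpt4, Mcpt1, Tpsb2 and Tpsab1 were not analysed here, and 0 of the 9 genes summed were at 0 in any library. The part of cell composition, of the mitochondrial reads of control replicate 2 or of sex in these values was not tested.

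**Figure D4:**
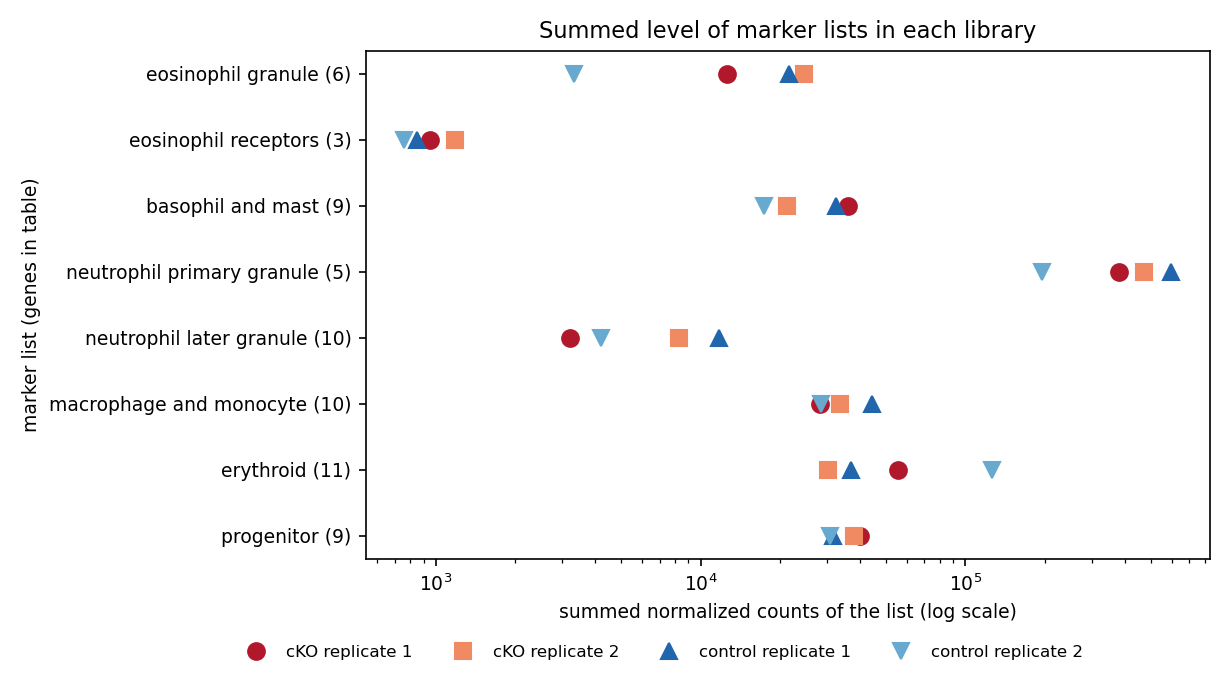
Summed normalized counts (log scale) of marker lists in each library, with the number of genes in the table in brackets. Control replicate 2 is lowest for the eosinophil granule list (3324) and highest for the erythroid list (126479), while the eosinophil receptors sum to 762 to 1181 in all libraries. Siglecf gives most of that sum (707 to 986), whereas Ccr3 (26.8 to 168) and Il5ra (23.9 to 48.0) vary more in proportion.

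The genes most like the 10 over the 4 libraries were on none of the eosinophil lists. Likeness was the Euclidean distance between a gene's log2 profile and the mean profile of the 10, each centred on its own mean, among 11660 genes. That mean profile was 0.25 and 1.13 in cKO, and 0.51 and -1.89 in control. The nearest were Myo18b (distance 0.39), Itga8 (0.47), Clec4b2 (0.59), Mmp19 (0.61) and Eno1b (0.64), followed by Ncoa4-ps, Vit, Dgkg, Pik3c2a and Slc9a3r2 (0.68 to 0.76).

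Myo18b, an unconventional myosin, had 78.2 and 98.8 normalized counts in cKO, and 79.4 and 14.4 in control. Mmp19, a matrix metalloprotease, had 313 and 400 in cKO, and 409 and 85.3 in control, and Dgkg, a diacylglycerol kinase, had 515 and 554 in cKO, and 662 and 127 in control. All 10 nearest genes were lowest in control replicate 2, the point that the measure weighs most with 4 libraries.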

How the data were processed

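RNA-seq libraries of 4 mice, 2 per genotype, were analysed from 1 deposited table. Per the file headers, the authors deposited normalized read counts per gene, a signal that is each count over 1 size factor per library. The submitters' processing notes name STAR 2.7.9a, Trim Galore 0.6.7, SAMtools, featureCounts, DESeq2 and the build mm39. Neither settings nor annotation nor strandedness is given in the sources used here. Columns named WT were taken as the libraries labelled control, by group and number.

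Whole reads were recovered (100% of values within 0.1 read of a whole number), and size factors were 0.857, 0.870, 1.08 and 1.25 for cKO 1, cKO 2, control 1 and control 2. The smallest sum of reads over a gene was 41, so rarer genes had been left out. Chi-square over degrees of freedom between replicates was 36.4 in cKO and 288 in control, above sampling noise. The labels state 2 mice per genotype.

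limma 3.58.1 (R 4.3.3) was run on log2(normalized count + 1), with a variance trend, on genes averaging at least 10, with 2 residual degrees of freedom and 5.48 prior ones. Fold changes on this scale understate the change of low genes. With 2 mice a group, the smallest exact permutation p is 0.33. edgeR 4.0.16 (quasi-likelihood, TMM) called 12 genes on the recovered reads and DESeq2 1.42.0 called 110. The limma, edgeR and DESeq2 fits were tested on simulated counts, and the other steps were not. Exon lengths are unions over GENCODE M21 exons. The genes and lists were chosen with earlier results of these data known. Named genes are the 10 members, the listed partner genes, the leading genes of marker lists and the 10 nearest by profile.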

Additional observations from a re-analysis of the deposited data

How the results depend on the processing

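The number of genes called over the whole table was 12, and 110 with DESeq2 on the recovered reads. Leaving out each library gave 18 to 392 calls, and called 0 to 6 of the 10 eosinophil genes, the 6 being called without control replicate 1. In the other settings (pseudocounts of 0.5 and 10, no filter, a mean of at least 50, TMM rescaling, quantile normalization, no trend, a robust fit, edgeR and DESeq2), 0 of the 10 were called. Leave-one-out log2 fold changes spanned -0.32 to 3.34 for Epx, -0.37 to 2.11 for Prg2, -0.12 to 5.56 for Ear1, -0.42 to 1.30 for Ear2 and -0.45 to 0.53 for Il5ra. Il5ra also turned to -0.093 with quantile normalization. Of 149 values of single genes over all settings, 8 changed sign. Of the 40 from leaving out a library 7 did, against 1 of the 109 from the other settings. Among the latter, no filter, a mean of at least 50, no trend, a robust fit and a replicate block leave each log2 fold change as it was. The median of the 10 spanned 0.05 to 2.24 when single libraries were dropped, and was 0.89 with edgeR and 0.87 with DESeq2. The summed Ear genes had a log2 fold change of 1.35, or -0.08 to 2.79 when single libraries were dropped. The cause of these shifts was not tested beyond naming the library.

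With the replicate number as a block, limma called 8 genes over the table and 0 of the 10. The labels do not say that a number marks a shared litter or day, and the deviations of same-numbered libraries correlated at -0.07 over genes, so the numbers were not taken as pairs. Depth limits Il5ra (24 to 52 reads), Ccr3 (29 to 146 reads) and Ear1 and Ear6 in control replicate 2 (16 and 18 reads). Among the granule genes the control libraries lie far outside each other's counting intervals, while those of Siglecf overlap between the control libraries and those of Alox15 between the cKO libraries.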
